A study of Mus musculus with 54 samples.

Results

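White adipose tissue identity was described in mice that had not been made to swim, from the 8 control arrays of both white fat depots, 4 of visceral fat and 4 of subcutaneous fat, set against the 19 control arrays of liver (3 arrays), kidney, spleen, brain and muscle (4 arrays each). These 27 control arrays belong to a series of 54 arrays on total RNA, in which the other 27 came from swim mice. All mice carried the C57BL6 genotype with no further allele named and were 14 weeks old per the labels. The swim mice had swum for 3 weeks in 2 daily sessions of 90 minutes, and the control mice had no such treatment in the labels. Each array was labelled with 1 tissue, and neither the position of the depots in the body, the sex of the mice nor any pooling is given in the sources used here.

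White adipocytes store triglyceride in a single large lipid droplet, coat it with perilipin and release fatty acids from it through a chain of lipases. They are also endocrine cells that secrete leptin, adiponectin and resistin and read insulin, catecholamines and metabolites through surface receptors. The transcription factor PPAR gamma, together with C/EBP family members, drives their differentiation. Whole fat tissue also holds preadipocytes and other stromal cells, a collagen and laminin matrix, vessels, macrophages and, in some depots, lymph nodes.

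Levels are given as log2(signal + 16) after quantile normalization over the 27 control arrays, so that 1 unit is 2-fold. For each of 18759 genes the gap is the lower of both depot means less the highest mean among the 5 other tissues. A gene counted as higher in both depots where limma found all 10 differences between a depot and another tissue above 0, with the largest of the 10 one-sided p-values below 0.05 after Benjamini-Hochberg adjustment over all genes. White fat genes are those that also had a gap of at least 1. Since that gap chose them, their gaps describe them and support nothing further. The labels do not say that arrays came from separate animals, so p-values measure only the spread between these arrays.

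Both depots shared higher levels than every other tissue for 169 genes, 0.901% of those tested, and lower levels for 29 genes, or 0.155%. The white fat genes numbered 113, or 0.602%, and 109 of them are annotated as protein coding. Their gaps ran from 1.02 to 5.15 with a median of 1.65, against a median of -0.85 over all genes. A gap of 2 or more was reached by 37 of them and of 3 or more by 18. Of all genes, 885 had a gap above 0, or 4.72%, and 390 passed an unadjusted p of 0.05 for higher levels and 149 for lower levels. Every fat array lay above every array of the other tissues for 104 of the 113 genes, which is partly fixed by how they were chosen. The same held for 195 of all genes tested, or 1.04%.

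The labelled tissue was checked against its defining markers. Adipoq, which encodes the adipocyte hormone adiponectin, stood at 12.88, 12.75, 13.21 and 12.91 in visceral fat and at 12.77, 12.02, 11.29 and 11.79 in subcutaneous fat. In the 3 liver arrays it lay between 4.23 and 4.44, and in brain between 4.41 and 4.59. It was higher in kidney, at 7.45, 7.37, 8.45 and 7.64, and in muscle, at 8.62, 6.61, 8.65 and 8.46. The markers of liver, kidney, brain and muscle (Alb, Umod, Snap25 and Ckm) had their highest mean in the organ they mark. Some arrays also carried genes of another organ. The mean over 7 liver genes was 9.96 and 7.34 in spleen arrays 26 and 27, against 4.72 and 4.63 in spleen arrays 25 and 28, and 8.44 in muscle array 42, against 5.36 to 6.90 in the other muscle arrays. In fat it was 5.52 to 7.23 in visceral arrays and 5.97 to 8.32 in subcutaneous arrays. The mean over 10 muscle genes was 8.88 in liver array 52, against 5.5 and 5.17 in liver arrays 49 and 50. White fat genes numbered 113 without spleen array 26, 108 without muscle array 42 and 108 without liver array 52.

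The subcutaneous arrays were not alike. Cd79a, a B cell receptor subunit, stood at 4.89 in array 17 and at 11.32, 11.43 and 11.30 in arrays 18, 19 and 20, against 11.25 to 11.31 in spleen. Glycam1, a mucin of lymph node vessels, stood at 5.58 in array 17 and at 13.76, 14.36 and 14.21 in the other three, against 5.40 to 5.61 in spleen. Means over 7 measured B cell genes were 5.40 in array 17 and 11.80, 11.75 and 11.74 in arrays 18 to 20, and means over 3 lymph node stroma genes were 5.97 against 10.87, 11.34 and 10.94. Means over 8 T cell genes were 5.30 in array 17 and 10.21, 10.62 and 10.62 in the other three. The visceral arrays lay between 5.19 and 6.09 for all of these means. A level in such bulk RNA cannot tell fewer adipocytes from less RNA per adipocyte.

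**Figure D1:**
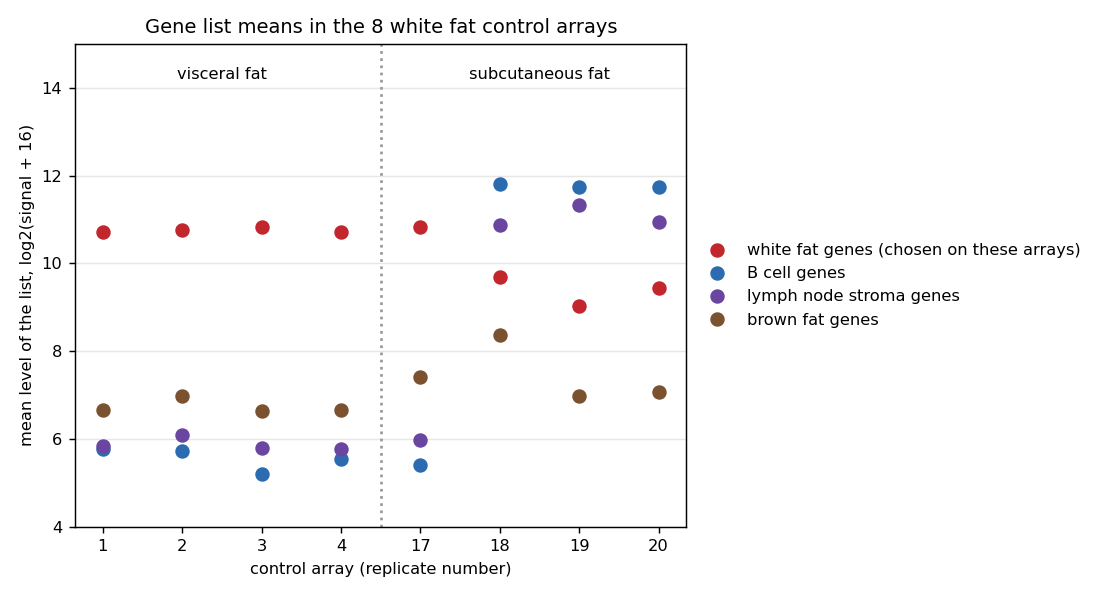
Mean level of 4 gene lists in each of the 8 white fat control arrays, as log2(signal + 16), with visceral fat on the left and subcutaneous fat on the right. The B cell and lymph node stroma means are above 10 in subcutaneous arrays 18, 19 and 20, the same arrays in which the mean of the white fat genes is 9.04 to 9.68, against 10.84 in array 17.

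Hormones and secreted signals held the best known members. Lep, which encodes the satiety hormone leptin, stood at 11.59, 11.49, 11.37 and 11.62 in visceral fat and at 11.09, 9.02, 7.45 and 9.52 in subcutaneous fat. The 19 other arrays ranged from 4.33 to 6.09 with a median of 4.54. Leptin was thus separated from every other tissue even in its lowest fat array, with a gap of 3.99 ± 0.43 (SE, adjusted p = 1.21e-06). Since the other tissues lay near background, the size depended on the pseudocount, at 4.87 with 1 and 2.94 with 64. Adipoq had a gap of 3.88 ± 0.34, or 14.7-fold, over muscle (adjusted p = 4.38e-08).

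Retn, which encodes resistin, was among the highest members in level, at 13.30, 13.12, 13.50 and 13.37 in visceral fat and 13.21, 12.78, 12.17 and 12.78 in subcutaneous fat. Its 19 other arrays ranged from 4.65 to 9.73 with a median of 6.71, and its gap over muscle was 3.59. Lower down stood Fgf10, a growth factor of mesenchyme, with a gap of 2.34, Ccdc3, a secreted protein, with 1.71, Chrdl1, a BMP antagonist, with 1.65, and Nrg4, an epidermal growth factor family ligand, with 1.40. Of the 14 measured adipokines on the list used here, 5 were called (Lep, Adipoq, Retn, Ccdc3 and Nrg4), against 0.901% of all genes. The list's median gap was -0.40. Agt, which encodes angiotensinogen, and Rbp4, which encodes retinol binding protein, were highest in liver, with gaps of -3.77 and -1.24.

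**Figure D2:**
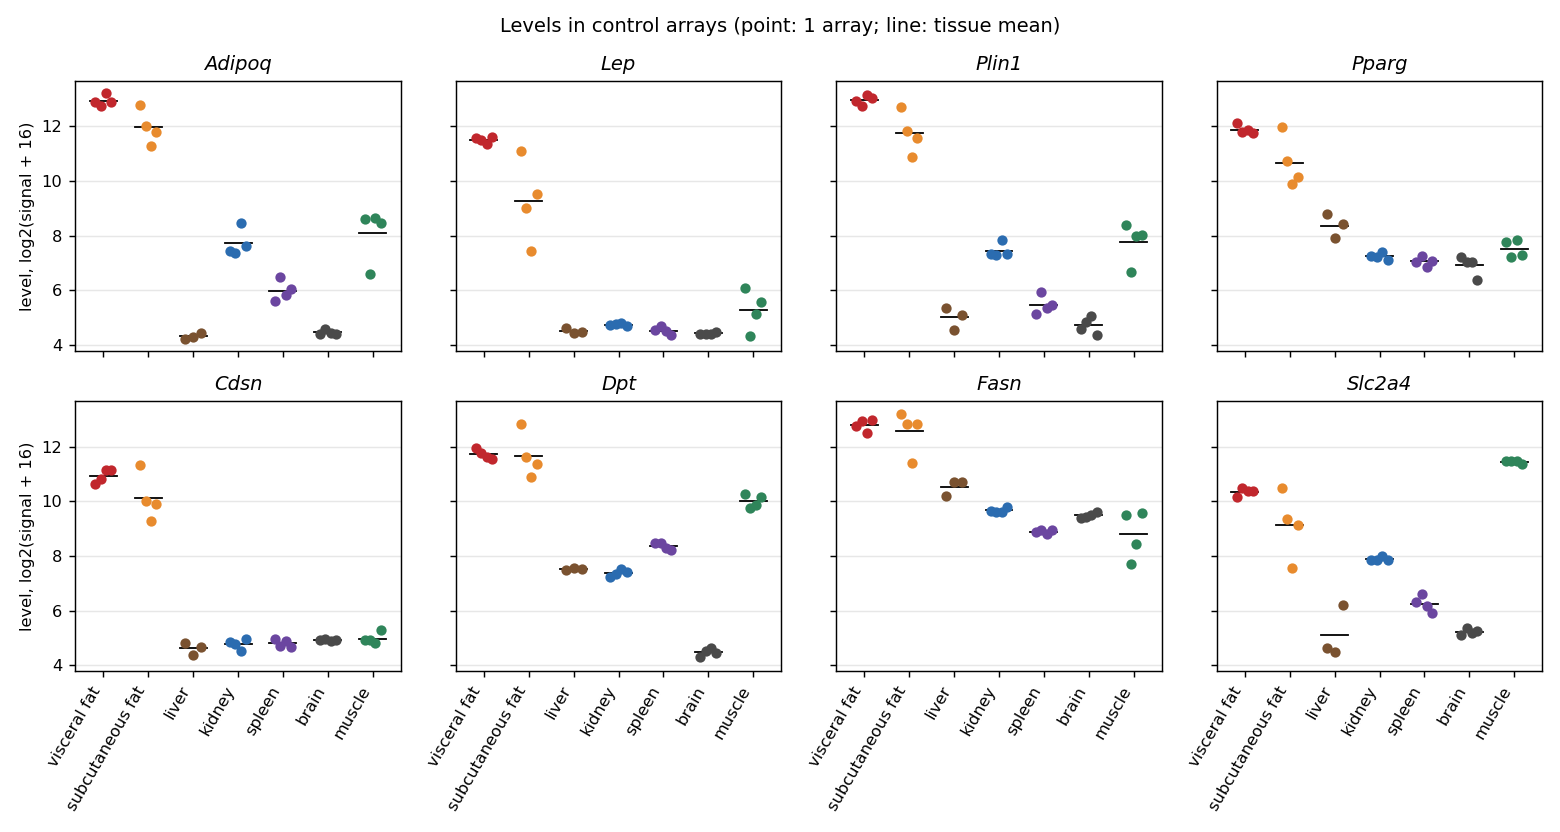
Levels of 8 genes in the 27 control arrays, as log2(signal + 16), by tissue, with both fat depots on the left, a point for each array and a line for each tissue mean. Lep and Cdsn lie near the floor in liver, kidney, spleen and brain, Adipoq and Plin1 reach 8.65 and 8.38 in muscle, Fasn reaches 10.71 in liver, and Slc2a4 is highest in muscle.

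The lipid droplet and its lipases formed the list with the largest share of called genes. Of 22 measured genes of lipid droplets and lipolysis, 11, or 50%, were called higher, against 0.901% of all genes. Of these 22, 10 were white fat genes, against 0.602% of all genes, and the list's median gap was 1.01. Plin1, which encodes the perilipin that coats the droplet, stood at 12.92, 12.76, 13.16 and 13.04 in visceral fat and at 12.72, 11.84, 10.88 and 11.56 in subcutaneous fat. The other arrays ranged from 4.36 to 8.38 with a median of 5.47, so the groups did not overlap, and the gap was 3.98 ± 0.32 (adjusted p = 1.32e-08).

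Cidec, which encodes a protein that fuses droplets, stood at 12.93, 12.97, 13.32 and 13 in visceral fat and at 12.87, 12.23, 12.05 and 12.01 in subcutaneous fat. Its highest other array was kidney 11 at 9.22, and its gap over kidney was 3.95. Among the lipases, Lipe (hormone-sensitive lipase) had a gap of 3.10 and the smallest standard error of the 20 leading genes, 0.18, while Pnpla2 (adipose triglyceride lipase) had a gap of 1.69 over muscle. The coat proteins of caveolae, the membrane pits that are dense on adipocytes, were also members. Cav1 had a gap of 1.43, Cav2 of 1.73, Cavin1 of 1.22 and Cavin3 of 2.0. Cav1 and Cav2 neighbour each other in the genome with no annotated gene between them.

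Of the lipid droplet list, Mgll (monoglyceride lipase) missed the threshold with a gap of 1.06 over liver (adjusted p = 0.133), as did Aqp7, a glycerol channel, with 0.58 over kidney (adjusted p = 0.375). Cidea, a droplet protein of brown fat, had a gap of -0.68, with kidney highest. The list's count of 11 was 5 with arrays centred on their medians and 4 with each pair of tissues fitted apart. Calls over all genes also fell in these settings, from 169 to 78 and 22.

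To show the sequence at the start of members that move together, promoters from RefSeq (GRCm38.p6) are printed for 6 members of this pattern, each from 250 bases before a gene start to 50 after it, in the direction of transcription. They are the hormone genes Lep and Adipoq, the droplet protein genes Plin1 and Cidec, the regulator Pparg and the member of largest gap, Cdsn. Where a gene has several starts, the one printed holds a match. Capitals mark matches to TTGCNNAA, the core of the C/EBP motif, or to CCAAT, each searched on both strands.
Lep, chr6:29059971-29060270, plus strand: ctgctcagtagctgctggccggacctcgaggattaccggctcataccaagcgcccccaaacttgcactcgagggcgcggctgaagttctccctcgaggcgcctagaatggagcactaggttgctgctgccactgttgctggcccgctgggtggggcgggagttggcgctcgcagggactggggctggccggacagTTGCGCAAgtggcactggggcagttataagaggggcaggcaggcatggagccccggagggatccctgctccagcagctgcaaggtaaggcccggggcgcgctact
Adipoq, chr16:23146286-23146585, plus strand: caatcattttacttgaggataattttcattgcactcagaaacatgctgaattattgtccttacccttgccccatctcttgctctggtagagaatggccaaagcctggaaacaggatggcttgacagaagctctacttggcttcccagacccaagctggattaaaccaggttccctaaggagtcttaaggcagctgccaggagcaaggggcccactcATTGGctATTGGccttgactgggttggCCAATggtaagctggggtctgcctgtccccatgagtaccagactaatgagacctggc
Plin1, chr7:79732727-79733026, minus strand: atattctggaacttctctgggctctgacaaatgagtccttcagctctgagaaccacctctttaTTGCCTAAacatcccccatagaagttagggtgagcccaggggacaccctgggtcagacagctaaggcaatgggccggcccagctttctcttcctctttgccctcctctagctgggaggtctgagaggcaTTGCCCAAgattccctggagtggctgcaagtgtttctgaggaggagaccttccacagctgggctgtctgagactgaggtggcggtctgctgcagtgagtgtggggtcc
Cidec, chr6:113434715-113435014, minus strand: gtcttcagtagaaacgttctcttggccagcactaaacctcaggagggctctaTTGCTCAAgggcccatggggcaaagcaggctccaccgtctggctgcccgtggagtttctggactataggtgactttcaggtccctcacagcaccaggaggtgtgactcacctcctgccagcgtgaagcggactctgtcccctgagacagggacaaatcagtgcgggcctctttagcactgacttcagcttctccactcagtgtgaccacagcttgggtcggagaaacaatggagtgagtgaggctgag
Cdsn, chr17:35551878-35552177, plus strand: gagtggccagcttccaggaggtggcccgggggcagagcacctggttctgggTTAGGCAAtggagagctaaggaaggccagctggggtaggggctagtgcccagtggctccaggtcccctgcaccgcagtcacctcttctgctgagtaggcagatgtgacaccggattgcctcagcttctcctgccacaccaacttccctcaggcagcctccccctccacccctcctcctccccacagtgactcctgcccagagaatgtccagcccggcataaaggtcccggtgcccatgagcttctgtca
Pparg, chr6:115421816-115422115, plus strand: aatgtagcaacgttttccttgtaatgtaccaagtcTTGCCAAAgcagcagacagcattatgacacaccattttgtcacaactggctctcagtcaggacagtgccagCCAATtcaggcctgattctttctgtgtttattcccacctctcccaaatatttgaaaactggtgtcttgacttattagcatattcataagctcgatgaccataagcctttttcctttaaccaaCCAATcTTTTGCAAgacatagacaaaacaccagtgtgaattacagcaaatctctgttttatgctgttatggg

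The Lep promoter holds 1 C/EBP core, TTGCGCAA, 55 bases before the start. The Plin1 promoter holds 2, at 187 and 58 bases before the start, and the Pparg start that lies furthest downstream holds 2, at 215 and 16 bases before it. The Adipoq promoter holds no C/EBP core in this window and 3 CCAAT matches, all within 34 bases before the start. The promoter of Retn, also a leading member, was searched likewise, holds neither motif and is not printed, so the printed promoters are not a full set. Promoters were matched for 78 of the 113 white fat genes, and 18 of these, or 23.1%, held a C/EBP core, against 11.4% of 14715 tested genes and 10.8% of all 32851 promoters in the table. CCAAT was found in 41% of the members and 41.9% of tested genes, TATAAA in 11.5% and 13.8%, CANNTG in 78.2% and 71.3%, and AGGNCANAGGNCA in 0 members and 0.408% of tested genes. A C/EBP core and a CCAAT match can share letters, which none of the matches printed do, and genes with several starts had more than 1 window in which to match. These are matches of letters only, with no test, and say nothing about binding.

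Of the 113 members, 10 are receptors for hormones and metabolites, a group formed from the members themselves, with no count of such receptors over all genes to set it against. Tshr, the thyrotropin receptor known mainly from the thyroid, stood at 11.25, 11.19, 11.33 and 11.30 in visceral fat and at 11.03, 9.67, 9.28 and 9.53 in subcutaneous fat, while the other arrays ranged from 4.15 to 6.30 with a median of 4.66. Its gap was 3.89 over kidney. Mc2r, the corticotropin receptor known mainly from the adrenal gland, stood at 9.87, 10.33, 9.96 and 9.82 in visceral fat and at 9.83, 8.26, 7.48 and 7.99 in subcutaneous fat. No array of another tissue exceeded 5.47 for it, and its gap was 3.34.

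Several of the 10 bind metabolites. Hcar1, a lactate receptor that restrains lipolysis, had a gap of 3.34, and its genomic neighbour Hcar2, a receptor of ketone bodies and niacin, one of 1.84. Ffar4, a receptor of long-chain fatty acids, had a gap of 2.12, and Ffar2, a receptor of short-chain fatty acids, one of 1.26 over spleen. Ffar2 stood between 7.27 and 7.56 in spleen and reached at most 5.59 in the other 15 arrays outside fat. Acvr1c, the activin receptor ALK7, had a gap of 2.24 over brain, Cmklr1, the chemerin receptor, 1.79, Mst1r, a receptor tyrosine kinase, 1.78, and Trpv1, the capsaicin channel, 1.44.

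Genes of insulin signalling were few. Trarg1, a regulator of glucose transporter traffic, had the highest gap of its kind at 4.05 ± 0.33 (adjusted p = 1.42e-08), with 11.66, 11.65, 11.92 and 11.66 in visceral fat and 11.85, 10.67, 9.51 and 10.39 in subcutaneous fat. Its other arrays ranged from 4.75 to 7.19. Irs3, an insulin receptor substrate of rodents, had a gap of 2.61 over kidney, and the adaptor Sh2b2 one of 1.47. By contrast Slc2a4, the glucose transporter that Trarg1 accompanies, stood at 10.15 to 10.47 in visceral fat and 7.55 to 10.48 in subcutaneous fat, against 11.36 to 11.48 in muscle, a gap of -2.32. Of the 14 measured genes of the insulin and glucose list, only Trarg1 was called, against 0.901% of all genes. The list's median gap was -0.48.

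Of 25 measured genes of fatty acid and triglyceride synthesis 6 were called (Pnpla3, Gpat3, Fasn, Dgat1, Acaca and Scd1), against 0.901% of all genes, with a median gap of -0.31 for the list. The gap was below 0 for 13 of the 25, with liver highest for 7, muscle for 3, kidney for 2 and brain for 1. Pnpla3, or adiponutrin, had a gap of 3.00, and Gpat3, which starts glycerolipid synthesis, one of 2.11. Fasn, fatty acid synthase, stood at 12.77, 12.94, 12.50 and 12.98 in visceral fat and 13.18, 12.82, 11.40 and 12.83 in subcutaneous fat, against 10.19 to 10.71 in liver, the next tissue, a gap of 2.02. Scd1, a fatty acid desaturase, had the highest level of the lipid genes, 14.09 in visceral fat and 13.59 in subcutaneous fat, and a gap of 1.10 over liver.

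Not called were Agpat2, Thrsp, Acly and Dgat2, genes of the same synthesis list whose highest other tissue was liver, with gaps of 0.55, 0.77, 0.41 and 0.48. Of 12 measured genes of fatty acid uptake, 3 were called (Fabp4, Slc27a1 and Lpl), against 0.901% of all genes. With values as deposited or with arrays centred on their medians, limma called 0 of the 12. In the fit given here 5 of the 12 had an unadjusted p under 0.05. Fabp4, the adipocyte fatty acid binding protein, split within both depots, at 12.10, 14.36, 14.56 and 12.23 in visceral fat and 14.36, 12.15, 11.86 and 12.05 in subcutaneous fat. Its gap was 1.98 ± 0.50 over muscle (adjusted p = 0.0372), and it lost its call without subcutaneous array 17 and without each of the 4 muscle arrays. Lpl, lipoprotein lipase, lay just outside the limit with a gap of 0.99, as did Ppp2r1b with 0.99 and Ccdc69 with 0.99, while Fgfrl1, Chst12 and Nupr1 lay just inside with 1.03, 1.02 and 1.02. Nupr1 lost its call in 20 of the 27 fits that left out 1 array. Fgfrl1 lost it in 5, without subcutaneous array 18 or any of the 4 muscle arrays, with a gap as low as 0.62.

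Among transcription factors, Pparg stood at 12.12, 11.79, 11.87 and 11.75 in visceral fat and at 11.96, 10.72, 9.89 and 10.13 in subcutaneous fat. Liver came next, at 8.78, 7.91 and 8.42, and the gap was 2.30 ± 0.32 (adjusted p = 3.53e-05). Cebpa, its partner in adipocyte differentiation, was not called, since its gap over liver was 0.04, with 10.63 to 11.35 in visceral fat, 8.76 to 11.32 in subcutaneous fat and 9.96 to 10.16 in liver. It was called without subcutaneous arrays 18, 19 and 20, with a gap of 1.09 (adjusted p = 0.00202), and in the swim arrays, with 0.83 (adjusted p = 0.0369). Of 23 measured adipocyte transcription factors 2 were called, against 0.901% of all genes. These were Pparg and Stat5a, a signal transducer of growth hormone and prolactin with a gap of 0.78. Off that list, Hoxc8, a homeobox gene of position along the trunk, had a gap of 1.98, and Twist2, a mesenchymal factor, one of 1.67.

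On the stromal side the share of called genes was below the 50% of the lipid droplet list and above the 0.901% over all genes. The adipocyte transcription factor list had 8.7% and the insulin and glucose list 7.14%. Of 30 measured genes of adipose stromal cells and preadipocytes 3, or 10%, were called (Dpt, Gsn and Anxa3), with a median gap of -0.67. Of 32 extracellular matrix genes 3, or 9.38%, were called (Prelp, Lama4 and Nid1), with a median of -0.13. Dpt, which encodes the matrix protein dermatopontin, stood at 11.95, 11.77, 11.63 and 11.55 in visceral fat and at 12.82, 11.61, 10.88 and 11.35 in subcutaneous fat. Muscle came next at 9.75 to 10.28, so fat and muscle did not overlap and the gap was 1.66 (adjusted p = 5.88e-05). These were the widest gaps of the stromal list (Dpt) and, at 1.31, of the matrix list (Prelp). Ccdc80, a secreted matrix protein that is on neither list, had a gap of 2.63 over muscle.

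Prelp, a leucine-rich proteoglycan, had a gap of 1.31 over liver, the laminin chain Lama4 had 1.14 and the actin-severing protein Gsn had 1.14, both over muscle. Adam12, Postn, Podn, Pxdn, Srpx2 and Sulf2, further genes of matrix or its remodelling, had gaps between 1.16 and 1.71. Several classical fibroblast genes were not members. Col3a1, a fibrillar collagen, missed with a gap of 0.78 (adjusted p = 0.9), at 10.09 to 10.43 in visceral fat and at 12.04, 9.72, 9.13 and 9.93 in subcutaneous fat, against 9.17 to 9.63 in muscle. Its gap was as low as 0.17 when 1 array was left out, but it was called without subcutaneous arrays 18, 19 and 20 (0.85, adjusted p = 7.23e-07) and in the swim arrays (1.47, adjusted p = 1.3e-05). Pdgfra, the receptor that marks preadipocytes, had a gap of -0.16, Dcn of -0.19, Lum of -0.89 and Col1a1 of -0.15, each with muscle highest outside fat, and Pdgfra was called at 0.54 without those 3 arrays (adjusted p = 0.0388). With arrays centred on their medians 1 of the 30 stromal genes (Anxa3) and 0 of the 32 matrix genes were called by limma, against 78 of all genes. Without subcutaneous arrays 18, 19 and 20, which leaves 1 array in that depot, both counts rose, as did the count over all genes. In the fit of all 27 control arrays 4 stromal and 8 matrix genes had an unadjusted p under 0.05.

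Other cells of fat gave few members, from lists of 7 to 19 genes, where 0.901% of all genes were called. At that share a list of this length would mostly hold no called gene, so a count of 0 says little about these cells. Of 16 endothelial genes 0 were called by limma, of 10 smooth muscle and pericyte genes 1 (Mcam, a perivascular adhesion molecule, gap 2.13), of 19 macrophage genes 1 (Clec10a, a macrophage lectin, gap 1.94), of 7 mast cell genes 1 (Cma1, a chymase, gap 0.48) and of 10 mesothelial genes 0, the lists at 0 also having 0 genes at an unadjusted p under 0.05. Clec10a was as high in both depots, at 7.31 to 8.53 in visceral fat and 7.19 to 8.66 in subcutaneous fat, against 4.28 to 6.34 elsewhere. Nos3, the nitric oxide synthase of endothelium, was a member off the lists, with a gap of 1.25. B cell, T cell, lymph node, brown fat, epithelial, testis, pancreas and nerve lists had 0 called members in the same limma fit and 0 at an unadjusted p under 0.05, with median gaps between -6.52 and -0.18.

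**Figure D3:**
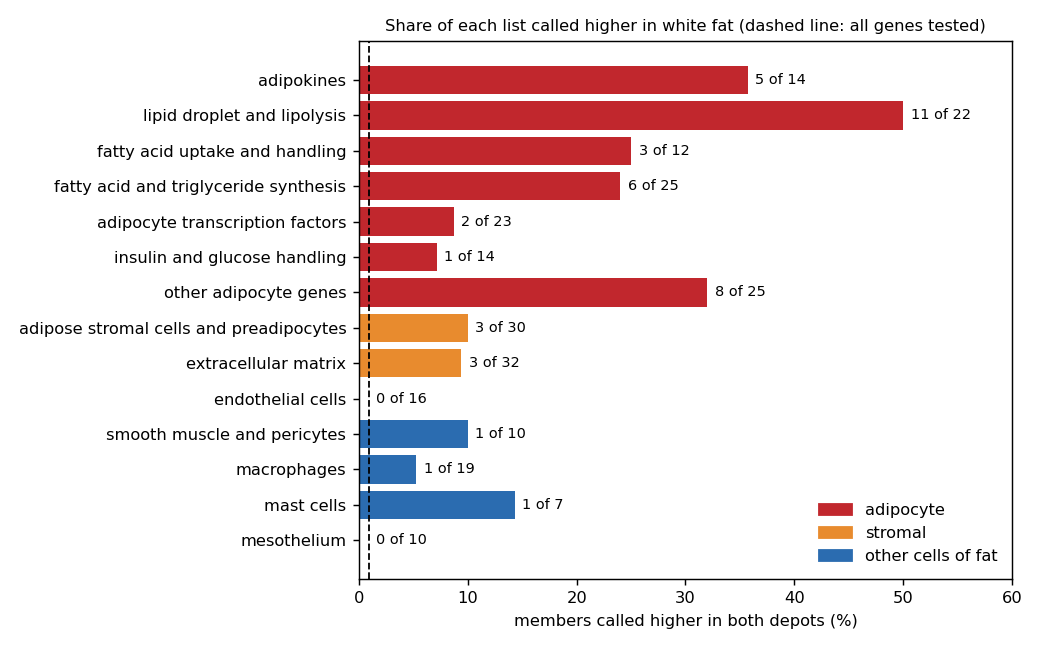
Percent of the measured genes of each list called higher in both depots than in all 5 other tissues, with the count beside each bar and the share over all 18759 genes as a dashed line at 0.901%. Lipid droplet and lipolysis genes have the longest bar, 11 of 22, and stromal and matrix genes 3 of 30 and 3 of 32.

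The lists named few of the members. Of the 113 white fat genes 33 stood on an adipocyte list, 4 on a stromal list and 2 on a list of other cells, and 74 were on none. The largest gap of all belonged to one of these, Cdsn, which encodes corneodesmosin, an adhesion protein known from the outer layer of skin. It stood at 10.62, 10.83, 11.15 and 11.13 in visceral fat and at 11.32, 10.00, 9.29 and 9.91 in subcutaneous fat, against 4.37 to 5.28 with a median of 4.87 elsewhere. The gap was 5.15 ± 0.25 (adjusted p = 2.61e-12), and 6.09 with a pseudocount of 1 and 3.88 with one of 64. A530016L24Rik, which has no function stated in the annotation used here, came next with 4.27.

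Lgals12, a galectin of adipocyte lipid droplets, had a gap of 4.12, Aoc3, an amine oxidase of the adipocyte surface, 3.94, Adig, or adipogenin, 3.45, and Slc36a2, an amino acid transporter, 3.58. A smaller set was near the array background outside fat. For 11 members (Cdsn, Lep, Mc2r, A530053G22Rik, Anxa8, Gm5627, Ffar4, B430212C06Rik, Map7d3, Trpv1 and Mir184) the highest mean of another tissue was below 5.81, the level under which 40% of all values lay. Such a level gives only a bound on the true difference. Mir184, the probe set of a microRNA gene, stood at 8.52 to 8.72 in visceral fat and at 7.84, 5.95, 5.13 and 5.71 in subcutaneous fat, against 4.28 to 4.96 elsewhere. Its gap was 1.31 (adjusted p = 0.0467), and it met both limits in only 2 of the 27 fits that left out 1 array and in 8 of the 14 other settings that tested it.

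Several of the members off the lists have known roles in signalling or metabolism. Prkar2b, a regulatory subunit of the cyclic AMP dependent kinase that activates lipolysis, stood at 12.24, 12.28, 12.29 and 12.08 in visceral fat and at 12.33, 11.47, 10.28 and 10.98 in subcutaneous fat, against 9.29 to 9.51 in spleen, a gap of 1.86. Sncg, which encodes gamma synuclein, a protein known from neurons, had 12.02 to 12.15 in visceral fat and 10.08 to 12.11 in subcutaneous fat, against 7.87 to 9.82 in brain. Scn7a, a sodium channel of atypical gating, had a gap of 1.91 over muscle, and Ltc4s, which makes leukotriene C4, had 2.0 over kidney. In amino acid metabolism, Phgdh, which starts serine synthesis, had a gap of 1.18, Bcat2, which transaminates branched-chain amino acids, 1.12, and Slc1a5, a glutamine transporter, 1.04.

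Cdkn2c, an inhibitor of cell cycle kinases, stood at 11.23 to 11.51 in visceral fat and at 11.39, 10.21, 9.22 and 10.16 in subcutaneous fat, against 5.28 to 8.31 elsewhere. Further members were Dram1, a lysosomal protein of autophagy, with a gap of 2.25, Ifi27l2a, an interferon-induced gene, with 2.22, Rasd1, a Ras-like protein induced by glucocorticoid, with 2.06, Apcdd1, a Wnt inhibitor, with 1.72, and Tspo, a mitochondrial outer membrane protein, with 1.45. G6pd2 had a gap of 1.37, and since it is a near copy of the glucose-6-phosphate dehydrogenase gene G6pdx its value is uncertain as to the copy.

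**Figure D4:**
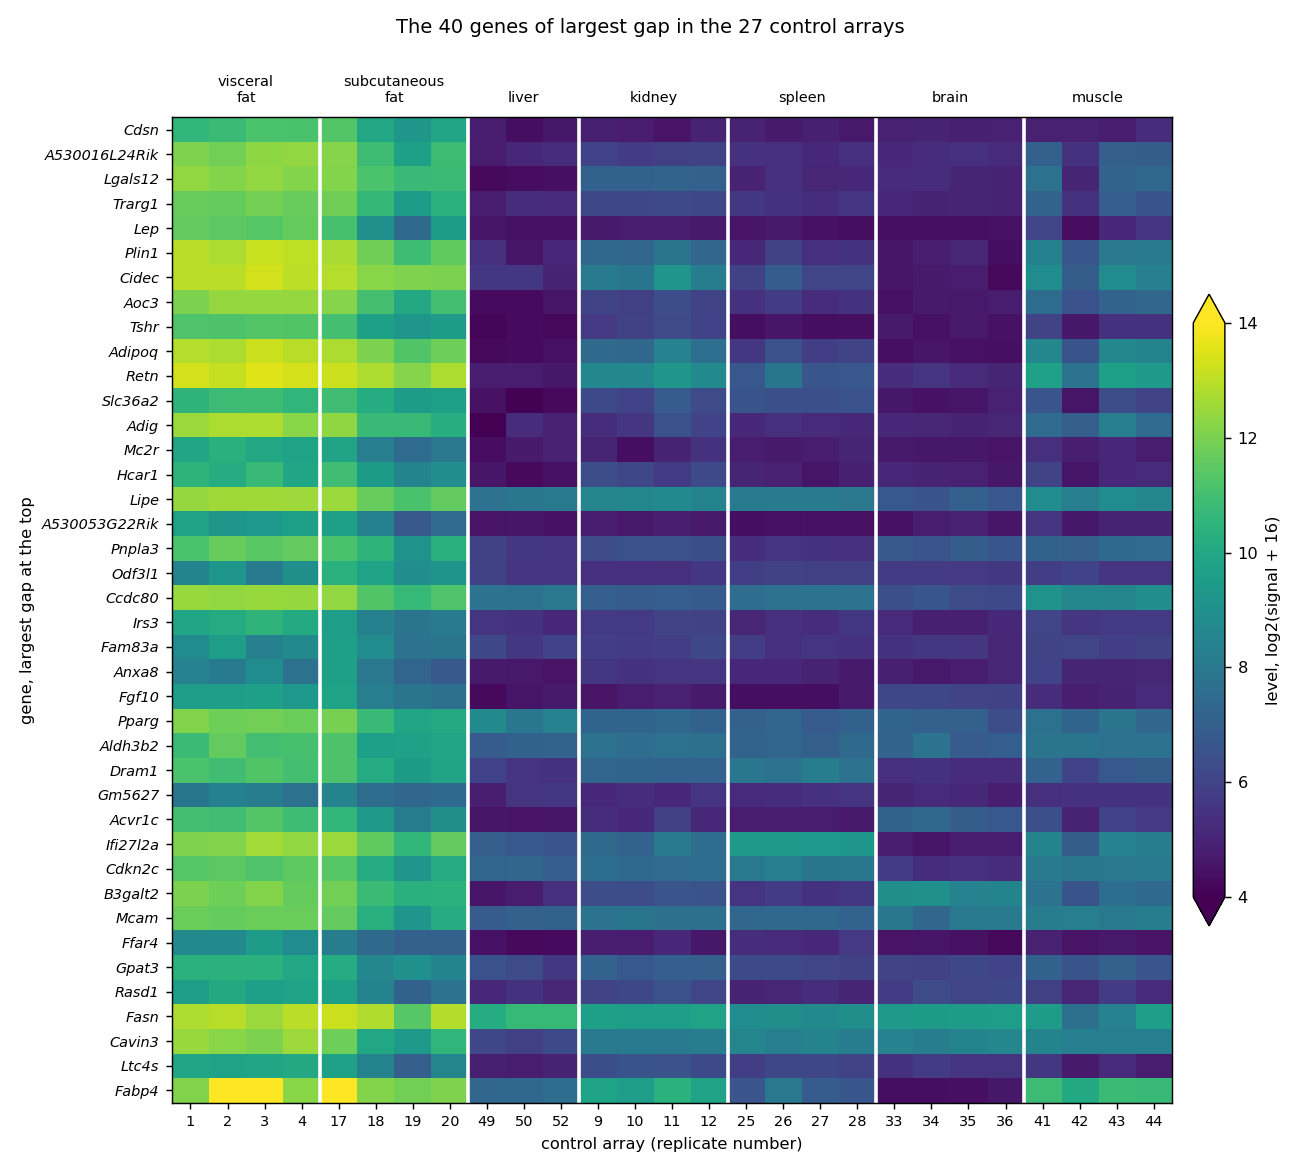
Levels of the 40 white fat genes of largest gap in the 27 control arrays, as log2(signal + 16) on a colour scale that is capped at 4 and 14, with genes in rows by gap and both fat depots on the left. Subcutaneous array 17 is close to the visceral arrays, arrays 18 to 20 are lower for most genes shown, and muscle and kidney carry a weak signal for Adipoq, Plin1, Cidec and Retn.

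The next tissue below fat was most often muscle. It had the highest mean outside fat for 50 of the 113 genes, or 44.2%, against 24.8% of all genes, and kidney for 24, or 21.2%, against 13.1%. Spleen followed with 19 genes, liver with 13 and brain with 7. Of the 50 genes with muscle next, muscle array 42 was the lowest of the 4 muscle arrays for 31, or 62%, against 28% of all genes with muscle next. Part of this is fixed by how the genes were chosen, since a low muscle level widens the gap. Array 42 also had the lowest median signal of the control arrays, 45.92, and the liver genes given above. In it Adipoq was at 6.61 and Plin1 at 6.67, against 8.46 to 8.65 and 7.98 to 8.38 in the other muscle arrays. Ucp1, the uncoupling protein of brown fat, stood at 4.43 to 4.91 in visceral fat and at 4.65, 11.03, 6.47 and 8.21 in subcutaneous fat, against 8.62, 8.52, 10.54 and 9.02 in kidney and 7.67, 4.89, 4.94 and 7.59 in muscle. With kidney and muscle both left out, an alternative added after the data were seen, the gap of Adipoq was 5.87 and the white fat genes numbered 250. Whether adipocytes in those samples carried this signal was not tested.

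Genes lower in both depots than everywhere else were few and differed less. Stard10, a lipid transfer protein, stood at 7.05 to 7.63 in visceral fat and 7.14 to 7.77 in subcutaneous fat, against 9.13 to 12.02 elsewhere, and its higher depot mean lay 1.71 below the lowest other tissue mean (adjusted p = 3.6e-09). For Plekha6, a pleckstrin homology protein, this difference was -1.59, for Fn3k, a kinase of glycated proteins, -1.39, for Car2, a carbonic anhydrase, -1.33, for Tlcd4 -1.29, and for Nt5c3, a pyrimidine nucleotidase, -1.15. Those 6 were all the genes called lower by at least 2-fold. Hook1 at -0.93 and Cpox, an enzyme of heme synthesis, at -0.90 completed the 8 named. Hook1 lost its call without spleen array 25, 26 or 28, with a difference as small as -0.61 when 1 array was left out, and had -0.44 with the mean of all its probe sets.

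In limma's fit of all 27 swim arrays none of these 8 was called lower, 5 other genes, or 0.0267% of those tested, were, and 136 genes had an unadjusted p under 0.05. Subcutaneous swim array 22, whose mean over 7 kidney genes was 12.42 against 4.90 to 5.16 in arrays 21, 23 and 24, was the highest of the 4 for 7 of these 8 genes, all but Tlcd4. Stard10 stood at 7.21, 10.85, 7.05 and 7.88 in swim arrays 21 to 24, Plekha6 at 6.01, 8.60, 5.51 and 5.94, and Car2 at 6.04, 10.45, 5.90 and 5.69. Without array 22, 6 of the 8 were called lower, among them Stard10 (-1.25, adjusted p = 0.000287), Plekha6 (-1.19, adjusted p = 7.1e-07) and Car2 (-1.27, adjusted p = 0.0191). That fit called 33 of the 18759 tested genes. Of the 29 genes called lower in control arrays, 0 were called in the fit of all swim arrays and 11 without array 22. Without arrays 22 and 23 the counts were 5 of the 8, Fn3k being lost, and 7 of the 29, with 38 genes called in all. Tlcd4 and Cpox were called in none of these swim fits.

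Most white fat genes were higher in visceral fat. In the same limma fit, 86 of the 113 were higher in visceral than in subcutaneous fat, where 31.1% of all genes were, 3 were higher in subcutaneous fat (Odf3l1, Postn and Gpx8), where 19.4% of all genes were, and 24 were not called. The median difference, visceral minus subcutaneous, was 1.04, against 0.07 over all genes. Lep had the widest of the 20 leading genes, at 2.25 (adjusted p = 0.000192), and Mir184, whose membership was lost in most fits as given above, the widest of all members, at 2.50. Odf3l1, named for an outer dense fibre of sperm tails, ran the other way, at 8.49, 9.24, 8.17 and 8.98 in visceral fat and 10.38, 9.79, 8.91 and 9.18 in subcutaneous fat.

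Subcutaneous array 17, the one without lymph node genes, was above each of arrays 18, 19 and 20 for all 113 white fat genes, against 46% of all genes. This is partly fixed by how the genes were chosen. Subcutaneous fat was the lower depot for 108 of them, so a high level in array 17 widened the gap. Without array 17, 76 of the 113 still met both limits. Array 17 minus the visceral mean had a median of -0.02 over the members and was above 0 for 51 of them, whereas the mean of arrays 18 to 20 minus the visceral mean had a median of -1.37. Without those 3 arrays subcutaneous fat rested on array 17 alone, whose spread is assumed to be that of the other tissues. Calls between depots in such a fit cannot be read as a result about the members. In that fit 326 genes, the 113 among them, met the limits for white fat genes. The part of lymph node RNA in the depot differences was not tested beyond these values.

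The 27 swim arrays, which took no part in choosing the genes, gave the same comparison anew. Among them 2 subcutaneous arrays stood apart. Umod, a kidney tubule protein, was at 15.49 in array 22 and between 4.99 and 5.19 in arrays 21, 23 and 24, and Ckm, the muscle creatine kinase, was at 11.55 in array 23 and between 5.46 and 6.14 in arrays 21, 22 and 24. There 220 genes, or 1.17% of those tested, were called with a gap of at least 1, and 107 of the 113 white fat genes were among them. These are 94.7% of the control genes and 48.6% of the swim genes. All 113 had a gap above 0 in the swim arrays, 111 were called, and the median gap was 2.11. For 80 genes the gap was larger than in the control arrays. Lep had a gap of 4.52 in swim arrays (adjusted p = 3.09e-10), Cdsn 5.13 (adjusted p = 1.01e-09), Adipoq 3.48 (adjusted p = 8.96e-08) and Pparg 2.93 (adjusted p = 3.23e-09). In single swim arrays Lep stood at 11.70, 11.53, 11.33 and 11.70 in visceral fat and at 11.57, 9.54, 10.46 and 11.05 in subcutaneous fat. The 19 other swim arrays ranged from 4.36 to 6.94. The highest of these was a muscle array in which Adipoq was at 9.57 and Cdsn at 6.87, the highest level of each outside fat. Muscle also had the highest mean outside fat for all 3 genes, as in control arrays, and so bounded their gaps. Subcutaneous swim arrays 22 and 23 also carried B cell genes, with means of 9.18 and 10.53, against 5.61 and 5.18 in arrays 21 and 24. With arrays 22 and 23 left out, an alternative added after the data were seen, 111 of the 113 genes met both limits.

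The 6 genes that did not meet both limits in swim arrays were Anxa8, Mir184, Ffar2, Net1, Dtx2 and Bcat2. Anxa8, an annexin, had a gap of 1.17 (adjusted p = 0.852), since it stood at 6.88, 6.50, 6.29 and 6.31 in visceral fat and at 8.05, 6.07, 6.18 and 10.89 in subcutaneous fat of swim mice. Ffar2 had a gap of 0.45 (adjusted p = 0.85). The other 4 were called with gaps of 0.98 for Mir184, 0.84 for Net1, 0.60 for Dtx2 and 0.87 for Bcat2. Of the stromal genes, Dpt had a gap of 1.45, Prelp 1.82, Gsn 1.46 and Lama4 1.69 in swim arrays, each past the threshold. Anxa3, an annexin on the stromal list, did not hold, with 0.64 in control arrays and -0.01 in swim arrays, and neither did Cma1, with 0.48 and 0.16. Whether any of these gaps differs between swim and control mice was not tested.

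**Figure D5:**
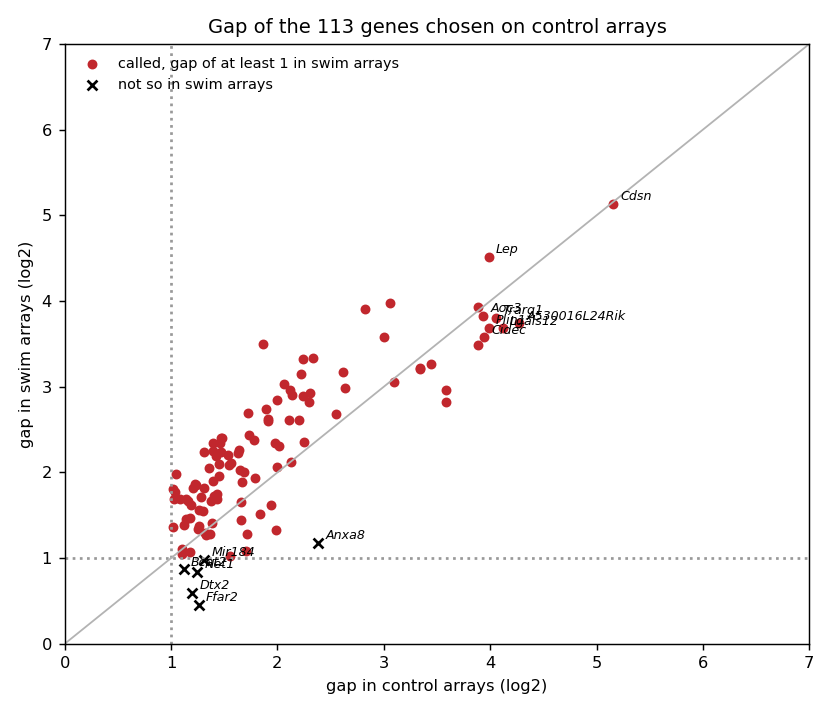
Gap of the 113 white fat genes in swim arrays (vertical axis) against the gap in control arrays that chose them (horizontal axis), both in log2 units, with dotted lines at 1 and a line of equality. The 107 genes shown as filled points passed both limits in swim arrays, and the 6 crosses (Anxa8, Mir184, Ffar2, Net1, Dtx2 and Bcat2) did not.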

How the data were processed

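Total RNA was hybridised to Affymetrix arrays. The deposited intensity values cover 25917 probe sets on a linear scale, and PLIER and limma are named in the submitters' processing notes without versions, and no genome build is given in the sources used here. Probe sets with 1 gene symbol (21086) were kept, and those with several (1867) or none (2964) were left out. Each of 18759 genes was represented by its brightest probe set.

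The 27 control arrays were quantile normalized as log2(signal + 16), where 16 is a pseudocount that shrinks differences of dim genes. Median signals of control arrays ran from 45.92 to 118.65. R 4.3.3 with limma 3.58.1 fitted 1 mean per tissue, without covariates, since the labels give no batch. The 27 swim arrays were fitted likewise, apart. The test was an intersection-union test. The number of arrays limits precision. Figures used matplotlib 3.10.9 and pandas 2.3.3, and robust fits statmod 1.5.0.

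The members, role groups and the 27 gene lists (393 names, 359 measured) were chosen with earlier results of these data known. Named genes were the 20 of largest gap, the 8 furthest down, up to 4 called genes of each fat list, fixed adipocyte, stromal and organ markers, and genes next to the gap of 1. Genes outside that rule were named after their values were seen. Related genes may share probes. Other scalings, pseudocounts, filters, fits and left-out arrays or tissues were tried.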

Additional observations from a re-analysis of the deposited data

Results flagged for a closer look

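Of 126 groups of 4 arrays looked at, 11 had 1 array far from the other three, and chance sets such an array apart in about 1 of 20 groups. In subcutaneous fat, array 17 stood apart for Cd79a (4.89), Glycam1 (5.58), Fabp4 (14.36) and Prelp (11.38), array 19 for Anxa3 (9.95) and array 20 for Ckm (7.55), a muscle creatine kinase. In visceral fat, array 3 stood apart for Trarg1 (11.92), Cidec (13.32) and Dgat1 (11.61), array 1 for Aoc3 (12.01) and array 4 for Gpat3 (9.96). The visceral outliers lay within 0.41 of the nearest of the other arrays, whereas Cd79a and Glycam1 in array 17 lay 6.41 and 8.18 below it.

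Of the 20 leading white fat genes, 17 differed between depots, visceral minus subcutaneous, by limma's test of that difference over all genes, as did 9471 of the 18759 genes tested. Subcutaneous arrays 18, 19 and 20, which carry lymph node genes, enter each of these differences. Over the 113 white fat genes their mean minus the visceral mean had a median of -1.37, and array 17 minus the visceral mean one of -0.02. The differences were 2.25 for Lep, 1.61 for Mc2r, 1.55 for Adig, 1.43 for A530053G22Rik, 1.39 for Tshr, 1.26 for A530016L24Rik, 1.24 for Aoc3, 1.22 for Plin1, 1.2 for Pnpla3, 1.12 for Trarg1, 1.04 for Lgals12, 1.01 for Ccdc80, 0.97 for Adipoq, 0.91 for Hcar1, 0.80 for Cdsn and 0.78 for Lipe, and -0.84 for Odf3l1. Cidec, Retn and Slc36a2 were not called.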

How the results depend on the processing

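The counts of genes higher in both depots (169), lower in both (29) and white fat genes (113) depended on how spread was pooled and on which tissues and arrays entered. In that order they were 22, 3 and 21 with each pair of tissues fitted apart, 78, 14 and 69 with arrays centred on their medians (67 of the 113 among them), and 97, 7 and 92 with values as deposited (89 of the 113). Without muscle they were 271, 52 and 179, without spleen 427, 112 and 200, and without kidney and muscle, added after the data were seen, 376, 82 and 250. Without subcutaneous arrays 18, 19 and 20 they were 735, 60 and 326, and 4 white fat genes were called higher in visceral fat. That fit leaves array 17 alone in its depot, which weakens the depot test for every gene, and no share over all genes is given. The 4 therefore cannot be set against the 86 of the main fit and do not show that the depot difference is lost. The swim arrays gave 408, 5 and 220, with 32 of the 113 higher in visceral fat. With no share over all genes in the swim arrays, the 32 cannot show whether the members differ from other genes there. Whether that count differs from the control count was not tested either. Leaving out 1 array at a time gave 152 to 227, 21 to 36 and 77 to 153, with the lowest count of white fat genes without subcutaneous array 17 (77) and the highest without array 19 (153), while those higher in visceral fat ranged from 77 to 105. White fat genes held in swim arrays, 107, ranged from 103 to 109 in such fits and from 88 to 111 in the other settings, with 88 for each pair of tissues fitted apart, 98 without the lowest 40% of genes and 101 with arrays centred. Of the 113, 76 stayed in all 27 such fits and 21 in each of the 15 other settings that tested them. The sign of 2 gaps turned in swim arrays, for Tlcd4 (0.13, and -0.12 without array 22) and Anxa3 (-0.012). Tlcd4 stood at 6.60, 7.77, 5.72 and 7.92 in subcutaneous swim arrays 21 to 24 and at 7.48, 7.72, 6.28 and 5.99 in spleen swim arrays. The median gap over all genes was -0.85 and, with arrays centred, -0.95. The causes were not tested. No paired analysis was possible because the replicate numbers differ in every group. Genes near background outside fat have gaps limited by signal over background.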
